A study of Mus musculus with 5 samples.

Results

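Gfap and 8 further genes that mark reactive astrocytes, namely Vim, Serpina3n, Lcn2, Osmr, Cd44, S1pr3, Steap4 and Cd109, were described in the tumor-bearing hemisphere of mice after ultrasound-mediated blood-brain barrier opening (UMBO). The 9 genes were chosen by name, with their levels in these same libraries already known, so the values of the UMBO and vehicle libraries that follow are a description, and the fold changes and standard errors taken from the fit over all genes are given with no p. They are 9 of the 55573 genes in the count tables and 9 of the 23592 genes with enough reads to be compared. GL261 mouse glioma cells carrying a luciferase/mKate2 vector had been placed in the right caudate-putamen of C57BL/6 females aged 7 to 8 weeks. Mice of the vehicle group received inVivoPure dilution buffer, and mice of the UMBO group received low-intensity pulsed ultrasound with circulating microbubbles, which transiently opens the barrier, in sessions on days 21 and 24. The right hemisphere was taken 24 h after the last session, and 3 vehicle and 2 UMBO libraries of bulk RNA were analysed here, fewer UMBO mice than the study's methods describe. Every library came from a hemisphere with tumor, so tumor cells, brain cells and blood-derived cells all contributed RNA, and whether the UMBO mice also received buffer is not given in the sources used here.

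Astrocytes respond to injury, infection and tumor growth by enlarging their processes and making more intermediate filament protein, a state known as reactive astrogliosis. Gfap and Vim code for the filaments themselves, and a shared set of secreted and surface proteins, known as the pan-reactive genes, accompanies them in many kinds of injury. Cytokines of the interleukin-6 family act through gp130 receptors and the transcription factor STAT3, which is a well-known activator of Gfap. Cd109 belongs to the set described after ischemia, often called A2, and the other 8 genes to the pan-reactive set. Several of the 9 are not restricted to astrocytes. Vim and Cd44 are also made by glioma cells, macrophages and vessel cells, and Lcn2 by neutrophils and endothelium.

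The promoters of the set are shown first, for the genes whose sequence held a motif that was searched for. Control of the 9 genes through these motifs was not tested. RefSeq sequence on GRCm38.p6, the build of the count tables, was found for 8 of the 9 genes, Cd109 being the one not matched. The search covered 300 bases, from 250 before to 50 after the start annotated in RefSeq, on both strands. The gene positions given further below are from GENCODE M21. The Gfap and Osmr windows lie wholly inside those positions, so the annotations place the start of these genes differently. The 50 bases after the start were added once the sequences had been seen. The Gfap and Osmr matches given below lie in or run into those added bases, and the Steap4 match does not. The STAT motif TTCNNNGAA was found in the windows of Gfap and Steap4 and in 8.3% of the 32851 promoters in the table. The AP-1 motif TGANTCA was found in Osmr and in 7.81% of all promoters, and the NF-kappa-B motif in none of the 8 windows and in 0.411% of all promoters. In the Gfap promoter (chr11:102897181-102897450, minus strand) the match TTCCAGGAA begins 2 bases before the start and so lies across it, in the Steap4 promoter (chr5:7960222-7960491, plus strand) the match TTCCCGGAA begins 116 bases before the start, and in Osmr (chr15:6874294-6874563, minus strand) the match TGATTCA begins at base 4 of the transcript. The lines give 270 bases of each, ending 20 bases after the start, with the match in capitals, and a match describes letters and not binding.
Gfap: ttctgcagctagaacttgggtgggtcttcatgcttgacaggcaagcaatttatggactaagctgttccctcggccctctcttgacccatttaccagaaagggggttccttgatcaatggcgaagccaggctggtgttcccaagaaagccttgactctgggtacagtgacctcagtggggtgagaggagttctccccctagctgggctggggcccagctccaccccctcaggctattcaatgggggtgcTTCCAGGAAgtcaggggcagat
Steap4: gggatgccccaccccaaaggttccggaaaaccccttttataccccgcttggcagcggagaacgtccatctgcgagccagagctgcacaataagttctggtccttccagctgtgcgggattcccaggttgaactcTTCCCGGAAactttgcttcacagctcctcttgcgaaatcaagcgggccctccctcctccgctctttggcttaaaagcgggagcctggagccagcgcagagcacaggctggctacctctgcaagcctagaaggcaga
Osmr: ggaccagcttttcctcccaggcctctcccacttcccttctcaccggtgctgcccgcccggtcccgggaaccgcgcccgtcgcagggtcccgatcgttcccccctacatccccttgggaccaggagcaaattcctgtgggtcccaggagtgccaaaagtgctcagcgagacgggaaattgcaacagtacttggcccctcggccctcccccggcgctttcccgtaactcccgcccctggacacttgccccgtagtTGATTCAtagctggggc

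Among the 5 libraries, UMBO replicate 2 stood apart. Its root mean square distance in log2 CPM (the read count of a gene relative to the TMM-adjusted size of its library) to the other libraries averaged 1.14, against 0.667 to 0.785 for the other 4. The total count was 59736771 to 86164159, which leaves little counting error except in genes with few reads. The fold change of each of the 9 genes and the median of each gene list are therefore also given without UMBO replicate 2, and single genes outside the 9 with all libraries only. Across all genes, edgeR's quasi-likelihood test called 0 of 23592 genes (0%) at an adjusted p under 0.05, with 1738 at an unadjusted p under 0.05, and DESeq2 called 37. Of those 1738 genes, 1251 (5.3% of genes tested) were higher and 487 (2.06%) lower with UMBO. Both UMBO libraries lay above all 3 vehicle libraries in 11.5% of genes and below all 3 in 11.4%. The labels give the samples as separate mice of a group and say nothing more of how they were raised or processed, so any spread between them may include technical spread.

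Of the 9 reactive astrocyte genes, 6 lay in both UMBO libraries above every vehicle library (Gfap, Vim, Serpina3n, Osmr, Cd44 and Cd109), against 11.5% of all genes tested. Because the genes were selected on this contrast, nothing is read from that count. The median log2 fold change of the 9 was 1.81, beside 0.01 over all genes, and it was 0.75 without UMBO replicate 2. In every one of the 9, UMBO replicate 2 was the highest library. Vehicle replicate 2 was the highest vehicle library in 8 of the 9, the exception being Steap4. In Gfap, UMBO replicate 1 lay 2.71-fold above the highest vehicle library, and in Vim, Serpina3n, Osmr, Cd44 and Cd109 it lay 1.08-fold to 1.57-fold above it. Less RNA per cell and fewer cells of a type cannot be told apart in bulk tissue, nor can more RNA per cell and more cells.

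**Figure D1:**
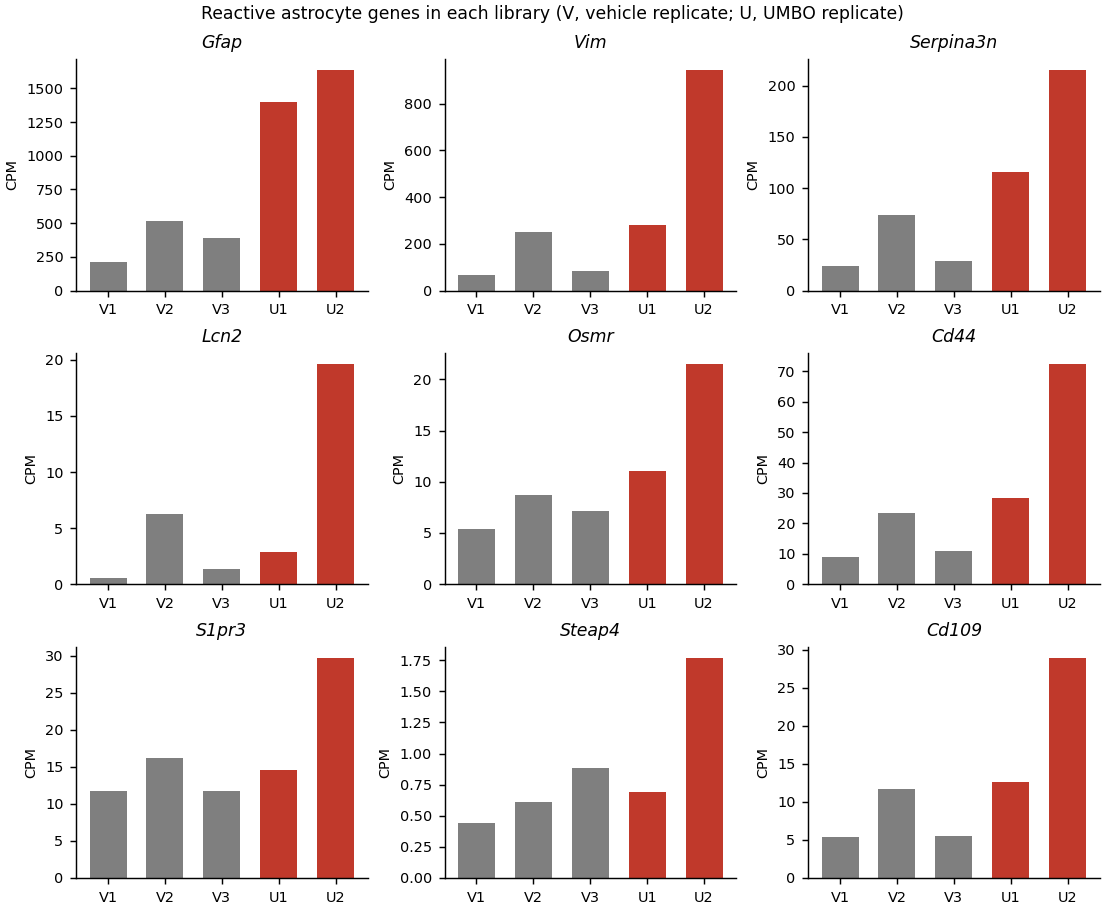
CPM of each of the 9 genes in each of the 5 libraries, with 1 panel per gene on a linear axis and 1 bar per library, vehicle in grey and UMBO in red. Both Gfap bars of the UMBO group (1396 and 1636 CPM) are well above the vehicle bars (214 to 515 CPM), while for Lcn2, S1pr3 and Steap4 UMBO replicate 1 lies within the vehicle range.

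Gfap (ENSMUSG00000020932, chr11:102887336-102900912, minus strand), the main intermediate filament of astrocytes, was the gene of the set with the most separate groups. The vehicle libraries, replicates 1 to 3, held 214, 515 and 388 CPM, and UMBO replicates 1 and 2 held 1396 and 1636 CPM (the same order of libraries is kept for every gene below). Both UMBO libraries were high, they lay close to each other (1.17-fold apart), and they did not overlap with the vehicle libraries, which spread 2.40-fold among themselves. The mean was 372 ± 151 CPM (SD, n = 3) with vehicle and 1516 ± 169 CPM (SD, n = 2) with UMBO, a log2 fold change of 2.03 (SE 0.401). Of all counts, Gfap took 0.0195%, 0.0522% and 0.0381% with vehicle, and 0.140% and 0.179% with UMBO. Per kb of exonic length it ranked 855th, 266th and 317th of all genes with vehicle, and 44th and 68th with UMBO. Leaving out 1 library at a time kept the log2 fold change between 1.75 and 2.36, and without UMBO replicate 2 it was 1.91. It was the only one of the 9 genes whose lowest value came from leaving out a vehicle library, replicate 1, in place of UMBO replicate 2.

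Vim (ENSMUSG00000026728, chr2:13573927-13582826, plus strand), the filament protein that is joined with Gfap in reactive astrocytes and made by many dividing or migrating cells, was at 68.3, 250 and 83.5 CPM with vehicle and at 278 and 943 CPM with UMBO. The groups did not overlap, but UMBO replicate 1 was only 1.11-fold above vehicle replicate 2, and the UMBO libraries differed 3.39-fold between themselves. The means were 134 ± 101 CPM (SD, n = 3) and 611 ± 470 CPM (SD, n = 2), with a log2 fold change of 2.19 (SE 0.733), the largest of the 9, which was 1.05 without UMBO replicate 2. The ratio of Gfap to Vim, each per kb, came to 3.52, 2.32 and 5.22 with vehicle and to 5.64 and 1.95 with UMBO. These ratios overlapped, since the highest and the lowest of the 5 were both UMBO libraries.

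Serpina3n (ENSMUSG00000021091, chr12:104406729-104414329, plus strand), a secreted inhibitor of serine proteases, was at 23.9, 73.8 and 28.9 CPM with vehicle and at 116 and 215 CPM with UMBO. Both UMBO libraries were above all vehicle libraries, the lower of them by 1.57-fold, the widest gap after Gfap. The means were 42.2 ± 27.5 CPM (SD, n = 3) and 165 ± 70.4 CPM (SD, n = 2), with a log2 fold change of 1.97 (SE 0.547), and 1.46 without UMBO replicate 2. Lcn2 (ENSMUSG00000026822, chr2:32384633-32388252, minus strand), lipocalin 2, a secreted protein that binds the iron-carrying siderophores of bacteria, was at 0.562, 6.29 and 1.33 CPM with vehicle and at 2.89 and 19.7 CPM with UMBO. The groups overlapped, with vehicle replicate 2 above UMBO replicate 1, and the vehicle libraries alone spread 11.2-fold. The counts behind these values were 42, 424, 113, 247 and 1287 reads, and the 95% Poisson intervals, which cover counting error only, ran from 5.71 to 6.92 CPM in vehicle replicate 2 and from 2.54 to 3.27 CPM in UMBO replicate 1. These intervals did not overlap. The means were 2.73 ± 3.11 CPM (SD, n = 3) and 11.3 ± 11.9 CPM (SD, n = 2). Its log2 fold change of 2.05 (SE 1.15) was 0.08 without UMBO replicate 2 and 3.60 without vehicle replicate 2.

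Among the receptors, Osmr (ENSMUSG00000022146, chr15:6813577-6874969, minus strand), the receptor subunit that binds oncostatin M together with gp130, was at 5.38, 8.66 and 7.16 CPM with vehicle and at 11.1 and 21.5 CPM with UMBO. The groups did not overlap, with UMBO replicate 1 at 1.28 times vehicle replicate 2. The means were 7.07 ± 1.65 CPM (SD, n = 3) and 16.3 ± 7.39 CPM (SD, n = 2), with a log2 fold change of 1.20 (SE 0.356), and 0.65 without UMBO replicate 2. Cd44 (ENSMUSG00000005087, chr2:102811141-102901665, minus strand), the cell-surface receptor for hyaluronan and osteopontin, was at 8.83, 23.5 and 10.8 CPM with vehicle and at 28.4 and 72.4 CPM with UMBO. Here too the groups did not overlap, and UMBO replicate 1 was 1.21-fold above the highest vehicle library. The means were 14.4 ± 7.93 CPM (SD, n = 3) and 50.4 ± 31.1 CPM (SD, n = 2), with a log2 fold change of 1.81 (SE 0.548), and 0.98 without UMBO replicate 2.

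S1pr3 (ENSMUSG00000067586, chr13:51408639-51422797, plus strand), a G protein-coupled receptor for sphingosine 1-phosphate, was at 11.7, 16.2 and 11.7 CPM with vehicle and at 14.6 and 29.7 CPM with UMBO. UMBO replicate 1 was below vehicle replicate 2, so the groups overlapped. Its means were 13.2 ± 2.62 CPM (SD, n = 3) and 22.2 ± 10.7 CPM (SD, n = 2), with the lowest log2 fold change of the 9, 0.75 (SE 0.344), and 0.14 without UMBO replicate 2. The lincRNA Gm32834 on the opposite strand shares 45 bases (1.01%) of the S1pr3 exons, and the strand setting of the counting is not given in the sources used here. Cd109 (ENSMUSG00000046186, chr9:78615546-78716253, plus strand), a GPI-anchored co-receptor that limits TGF-beta signaling, was at 5.38, 11.7 and 5.50 CPM with vehicle and at 12.6 and 29.0 CPM with UMBO. The groups did not overlap, though UMBO replicate 1 was only 1.08-fold above vehicle replicate 2. The means were 7.54 ± 3.64 CPM (SD, n = 3) and 20.8 ± 11.5 CPM (SD, n = 2), with a log2 fold change of 1.46 (SE 0.493), and 0.75 without UMBO replicate 2.

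Steap4 (ENSMUSG00000012428, chr5:7960457-7982213, plus strand), a metalloreductase that reduces iron and copper at the membrane, was the least abundant of the set. It was at 0.441, 0.608 and 0.886 CPM with vehicle and at 0.690 and 1.77 CPM with UMBO, from 33, 41, 75, 59 and 116 reads. UMBO replicate 1 lay within the vehicle range and UMBO replicate 2 above it. The 95% Poisson intervals of vehicle replicate 3 (0.697 to 1.11 CPM) and UMBO replicate 1 (0.525 to 0.890 CPM) overlapped, so their order was not detectable at this depth, while that of UMBO replicate 2 (1.46 to 2.12 CPM) lay above both. The means were 0.645 ± 0.225 CPM (SD, n = 3) and 1.23 ± 0.764 CPM (SD, n = 2). Its log2 fold change was 0.92 (SE 0.528), and 0.09 without UMBO replicate 2.

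**Figure D2:**
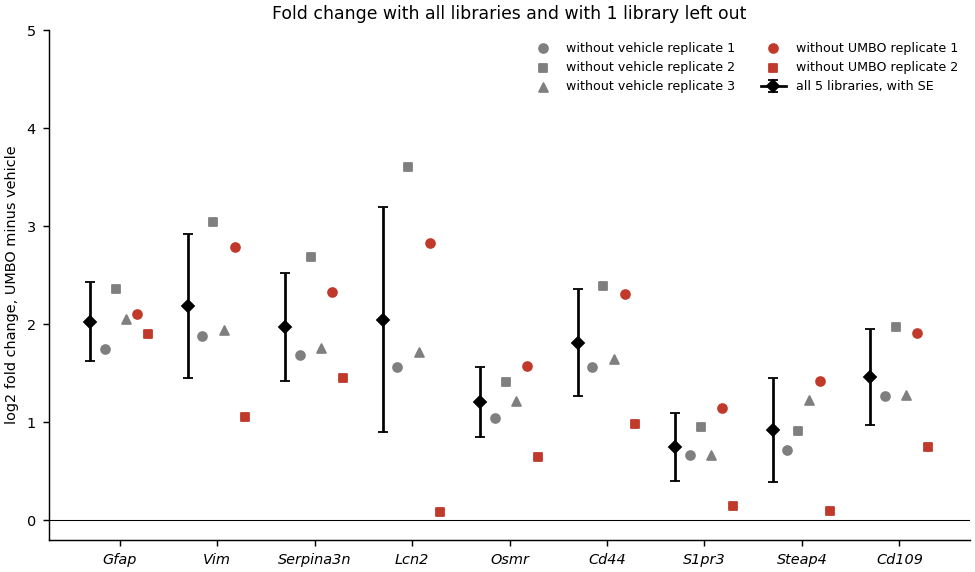
Log2 fold change of UMBO over vehicle for each of the 9 genes with all 5 libraries (with its standard error) and with each library left out in turn. For Gfap the values stay between 1.75 and 2.36, while for Lcn2, S1pr3 and Steap4 the value without UMBO replicate 2 lies near 0 (0.08, 0.14 and 0.09).

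To compare levels among the 9 genes, CPM was divided by exonic length in kb. On that scale Gfap was highest, at 50.8 to 122 CPM per kb with vehicle and 331 and 388 with UMBO. Vim followed at 14.4 to 52.7 with vehicle and 58.7 and 199 with UMBO, and Serpina3n at 11.6 to 35.7 and at 56.1 and 104 CPM per kb. The ranges of Vim and Serpina3n, neighbours in this order, overlapped in each group, but within every library Vim was the higher. With vehicle, S1pr3 was at 2.62 to 3.64 CPM per kb, Cd44 at 1.30 to 3.46, Lcn2 at 0.214 to 2.40 and Cd109 at 0.779 to 1.70. Neighbours in this order overlapped, and S1pr3 did not overlap with Lcn2 or Cd109. Osmr was at 0.444 to 0.715 CPM per kb with vehicle and Steap4, the lowest, at 0.140 to 0.281. The range of Lcn2 overlapped with both, and its place above Cd109 and Osmr rested on vehicle replicate 2. Summed, the 9 genes together made up 339, 906 and 537 CPM with vehicle and 1861 and 2969 CPM with UMBO.

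**Figure D3:**
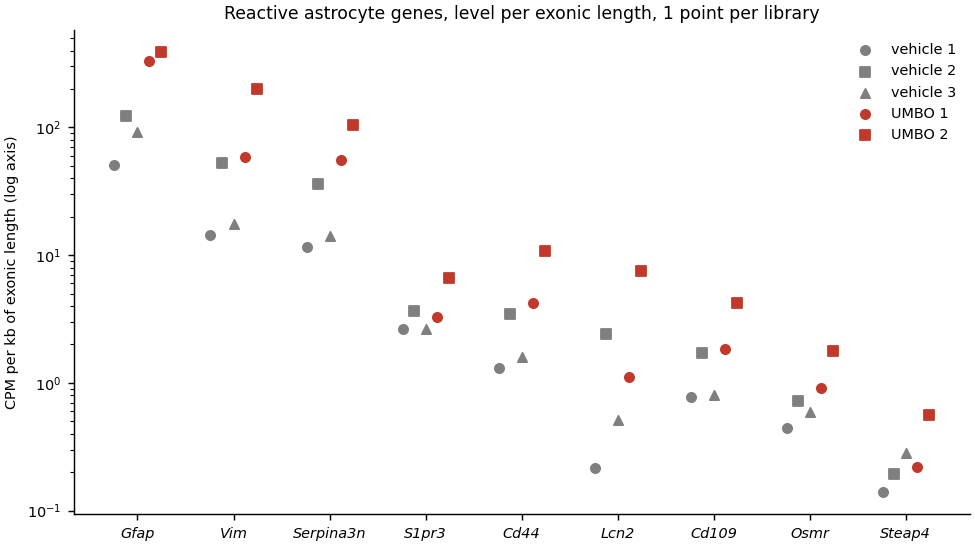
CPM per kb of exonic length in each library on a log axis, genes in order of their level in vehicle replicate 2, vehicle in grey and UMBO in red. Gfap is highest (50.8 to 388) and Steap4 lowest (0.140 to 0.561) in every library.

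The set was then set beside 18 astrocyte markers that do not define reactivity, such as Aldh1l1, a folate enzyme found across astrocytes, the glutamate transporter Slc1a2 and glutamine synthetase, Glul. None of the 18 reached an unadjusted p under 0.05, their median log2 fold change was -0.10 (0.22 without UMBO replicate 2), and 4 were separate between the groups, with both UMBO libraries on top, beside 11.5% of all genes. Without UMBO replicate 1, 5 reached an unadjusted p under 0.05. S100b, a calcium-binding protein, was at 116, 160 and 137 CPM with vehicle and at 170 and 235 CPM with UMBO (log2 fold change 0.56, SE 0.242). Aldh1l1 was at 61.6, 76.5 and 68.7 CPM with vehicle and at 88.2 and 89.1 CPM with UMBO (0.36, SE 0.171), and Sox9, a transcription factor of the lineage, at 48.1 to 58.1 CPM and at 60.8 and 60.3 CPM. Slc1a2 went the other way in UMBO replicate 2, where it was at 765 CPM against 1798 to 2887 CPM with vehicle, and it was at 2491 CPM in UMBO replicate 1. The amino acid transporter Slc7a10 was at 29.3 to 42.1 CPM with vehicle and 33.0 and 26.4 CPM with UMBO, and Glul at 1422 to 1629 CPM and 1511 and 1140 CPM. The markers show that astrocyte RNA was present in every library, and in UMBO replicate 2 their summed level was the lowest of the 5, at 5606 CPM against 7731 to 9667 CPM.

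Relative to the mean log2 CPM of these 18 markers in the same library, Gfap was at 0.10, 1.19 and 0.52 with vehicle and at 2.37 and 3.21 with UMBO, a difference of 2.19 in log2, and of 1.77 without UMBO replicate 2. Serpina3n (-3.06, -1.61 and -3.22 against -1.22 and 0.29), Osmr (-5.21, -4.70 and -5.23 against -4.60 and -3.03) and Cd44 (-4.49, -3.26 and -4.64 against -3.25 and -1.28) were also above every vehicle library in both UMBO libraries, for Osmr and Cd44 by 0.09 and 0.02 in UMBO replicate 1. Vim, Lcn2, S1pr3, Steap4 and Cd109 overlapped between the groups on this scale. The ratio of Gfap to Aldh1l1 in CPM, not corrected for length and so meaningful only between libraries, was 3.48, 6.73 and 5.64 with vehicle and 15.8 and 18.4 with UMBO, so these libraries did not overlap.

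**Figure D4:**
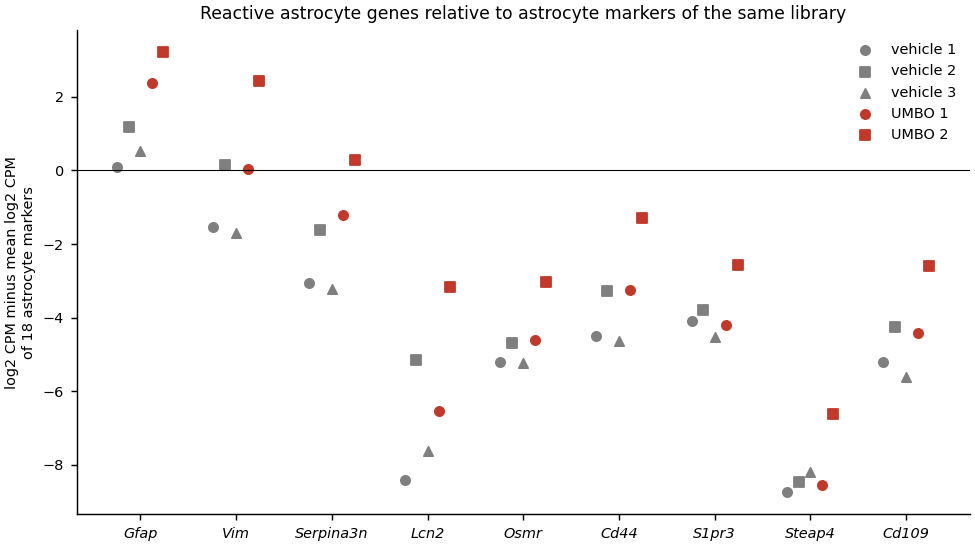
Log2 CPM of each gene minus the mean log2 CPM of 18 astrocyte markers in the same library, 1 point per library. Gfap lies between 0.10 and 1.19 with vehicle and at 2.37 and 3.21 with UMBO, while Vim, S1pr3, Lcn2, Steap4 and Cd109 overlap between the groups.

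Other reactive astrocyte genes were taken in 3 lists, and none passed the adjusted test. Of 5 further pan-reactive genes, 2 were higher at an unadjusted p under 0.05 and none lower, beside 5.3% and 2.06% of all genes. The count in either direction was 1 without vehicle replicate 1 or vehicle replicate 3, and 4 with vehicle replicate 2 left out. The median log2 fold change was 1.63, and 0.46 without UMBO replicate 2. Aspg, an asparaginase, was at 4.08, 6.48 and 4.36 CPM with vehicle and at 9.53 and 16.7 CPM with UMBO (log2 fold change 1.40, SE 0.346), and the small heat shock protein gene Hspb1 was at 2.74, 5.49 and 4.25 CPM with vehicle and at 5.71 CPM in UMBO replicate 1, with a UMBO mean of 12.9 ± 10.1 CPM (SD, n = 2) and a log2 fold change of 1.63 (SE 0.564). The groups did not overlap in either, although Hspb1 in UMBO replicate 1 was close to vehicle replicate 2. Timp1, an inhibitor of matrix metalloproteinases, was at 1.15, 8.46 and 0.969 CPM with vehicle and at 5.35 and 46.0 CPM with UMBO (2.87, SE 1.23). The interferon-induced chemokine gene Cxcl10 (1.63, SE 1.07) and ceruloplasmin, Cp (0.69, SE 0.402), likewise overlapped between the groups.

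In the A2 set, 7 of the 10 genes tested besides Cd109 were higher at an unadjusted p under 0.05 and none lower, beside 5.3% and 2.06% of all genes (median 1.49, and 0.50 without UMBO replicate 2). Counted in either direction, 1 passed when vehicle replicate 1 or vehicle replicate 3 was left out. Cd14, the endotoxin co-receptor that myeloid cells also carry, was at 2.10, 4.61 and 2.43 CPM with vehicle and at 6.18 and 24.4 CPM with UMBO (2.33, SE 0.634). Tgm1, a transglutaminase, was at 0.842, 3.83 and 0.969 CPM with vehicle and at 5.62 and 18.6 CPM with UMBO (2.69, SE 0.824). Both were separate between the groups, while S100a10 (1.34, SE 0.472), Emp1 (1.84, SE 0.678) and Tm4sf1 (1.53, SE 0.585) had UMBO replicate 1 within the vehicle range. In the A1 set, described after endotoxin, 1 of 12 genes tested was higher at that level, Ggta1, a galactosyltransferase, at 6.82, 12.7 and 9.23 CPM with vehicle and at 14.8 and 24.2 CPM with UMBO (1.03, SE 0.343). The A1 median was 1.13, but it was -0.07 without UMBO replicate 2. Counted in either direction, 0 passed without vehicle replicate 1 or vehicle replicate 3, and 8 with vehicle replicate 2 left out. Srgn, Psmb8, H2-D1 and Gbp2, immune genes that leukocytes also express, overlapped between the groups with log2 fold changes of 1.35, 1.80, 1.34 and 1.23, with vehicle replicate 2 above UMBO replicate 1 in each.

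The interleukin-6 family of cytokines, of which oncostatin M acts on Osmr, was followed with its receptors and STAT3 pathway in 19 genes tested. At an unadjusted p under 0.05, 5 were higher and none lower, beside 5.3% and 2.06% of all genes. The count in either direction was 1 without vehicle replicate 1 or vehicle replicate 3, and 8 with vehicle replicate 2 left out. The median log2 fold change was 0.40 (0.09 without UMBO replicate 2). Osm, oncostatin M, the ligand of Osmr and a product of myeloid cells, was at 0.214, 0.401 and 0.224 CPM with vehicle and at 0.737 and 3.10 CPM with UMBO (2.77, SE 0.676). Il6 was at 0.027, 0.237 and 0.130 CPM with vehicle and at 0.222 and 2.24 CPM with UMBO (3.22, SE 1.11). Osm was separate between the groups and Il6 was not, and both were under 1 CPM in 4 of the 5 libraries. The receptor Il6ra was at 8.02, 12.5 and 10.3 CPM with vehicle and at 14.3 and 24.7 CPM with UMBO (0.93, SE 0.313). Cebpd, a transcription factor gene that STAT3 switches on, was at 3.73, 9.95 and 3.52 CPM with vehicle and at 9.77 and 35.1 CPM with UMBO (1.97, SE 0.677), with UMBO replicate 1 just under vehicle replicate 2. The shared receptor gp130 (Il6st) was at 102 to 142 CPM with vehicle and at 140 and 90.1 CPM with UMBO (-0.03, SE 0.271), and the kinase Jak1 at 134 to 195 CPM and at 161 and 91.1 CPM (-0.38, SE 0.313). Stat3 itself had a log2 fold change of 0.63 (SE 0.337) and Socs3, its feedback inhibitor, 1.64 (SE 0.803), and neither was separate between the groups. Stat3 and Socs3 were named after their values were seen.

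Partners of the surface members were taken as ligands, receptors and linkers of Cd44, S1pr3, Lcn2 and Cd109. Of 21 tested, 7 were higher and 1 lower at an unadjusted p under 0.05, beside 5.3% and 2.06% of all genes, and these 8 came down to 1 when vehicle replicate 1, vehicle replicate 3 or UMBO replicate 2 was left out. The median log2 fold change was 0.24 (0.35 without UMBO replicate 2 and 0.07 without UMBO replicate 1), and in 7 the UMBO libraries lay wholly above the vehicle libraries and in 2 wholly below, beside 11.5% and 11.4% of all genes. Spp1, osteopontin, a ligand of Cd44 made largely by macrophages and microglia, was at 9.24, 17.9 and 17.8 CPM with vehicle and at 33.9 and 237 CPM with UMBO (3.18, SE 0.776). Tgfb1, whose signal Cd109 limits, was at 8.08, 18.3 and 10.4 CPM with vehicle and at 20.8 and 49.7 CPM with UMBO (1.52, SE 0.479). Msn, moesin, which ties Cd44 to actin, was at 34.1, 69.4 and 46.1 CPM with vehicle and at 76.1 and 150 CPM with UMBO (1.18, SE 0.398). These 3 were separate between the groups, and the hyaluronan receptor gene Hmmr, which is also a gene of mitosis, was not (3.04, 6.25 and 2.16 CPM against 6.10 and 24.0 CPM). S1pr1 was at 123 to 156 CPM with vehicle and at 130 and 79.4 CPM with UMBO (-0.39, SE 0.268), the opposite sign to S1pr3. The lipocalin 2 receptor gene Slc22a17 was at 441 to 448 CPM with vehicle and at 456 and 300.4 CPM with UMBO (-0.23, SE 0.257).

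Of 13 further intermediate filament genes and their linkers, 2 were higher at an unadjusted p under 0.05 and none lower, beside 5.3% and 2.06% of all genes. The median log2 fold change was -0.29 (-0.14 without UMBO replicate 2). In 3 of the 13 both UMBO libraries lay below every vehicle library, beside 11.4% of all genes. Nes, nestin, which is found in progenitor and glioma cells and in reactive astrocytes, was at 14.6, 37.2 and 17.4 CPM with vehicle and at 29.6 and 132 CPM with UMBO (1.81, SE 0.678). Lmnb1, a nuclear lamin, was at 13.9, 18.6 and 11.7 CPM with vehicle and at 18.1 and 51.8 CPM with UMBO (1.25, SE 0.453). In both, UMBO replicate 1 lay within the vehicle range. Prph, peripherin, overlapped as well (2.44, SE 1.00). The neuronal filament gene Nefl was at 328 to 453 CPM with vehicle and at 352 and 165 CPM with UMBO (-0.59, SE 0.371), and the linker Dst at 348 to 612 CPM and at 361 and 211 CPM (-0.86, SE 0.379).

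Close relatives of the members by sequence or family differed in level. Of 7 tested, 2 were higher at an unadjusted p under 0.05 and none lower, beside 5.3% and 2.06% of all genes. The median log2 fold change was 1.01 (0.35 without UMBO replicate 2). A2m, a protease inhibitor of the same family as Cd109, was at 10.9, 15.7 and 23.2 CPM with vehicle and at 31.7 and 47.2 CPM with UMBO (1.25, SE 0.353), with no overlap. Serpina3i, a relative of Serpina3n in the same family, was at 0.067 to 0.282 CPM with vehicle and at 0.222 and 1.13 CPM with UMBO (2.19, SE 0.880). Any reads shared by Serpina3n and Serpina3i could have been split or dropped in the counting. Their levels are uncertain to that extent, which was not tested. Steap3 was at 6.15, 9.41 and 8.32 CPM and at 10.1 and 15.9 CPM (0.71, SE 0.301), Steap1 overlapped (1.01, SE 0.476), and Steap2 had the opposite sign (-0.54, SE 0.329).

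Proliferation genes and monocyte and macrophage markers were, like the 9 genes, highest in UMBO replicate 2. The median deviation of the 9 genes from their vehicle mean, in log2 CPM, came to -0.57, 0.74 and -0.27 with vehicle and to 0.84 and 2.23 with UMBO. For 10 proliferation genes it was -0.23, 0.92 and -0.61 with vehicle and 1.06 and 2.90 with UMBO, so vehicle replicate 2 and UMBO replicate 2 were the highest of their groups in both. All 10 were higher at an unadjusted p under 0.05, where 5.3% of all genes were. Counted in either direction, only 1 passed when vehicle replicate 1 or vehicle replicate 3 was left out. Their median log2 fold change was 2.13, and 0.83 without UMBO replicate 2, with Mki67 at 9.15, 14.2 and 6.37 CPM against 20.2 and 51.8 CPM and Top2a at 16.5, 38.1 and 9.91 CPM against 38.2 and 175 CPM. The summed level of the 10 was 37.1 to 115 CPM with vehicle and 120 and 499 CPM with UMBO. The part of proliferating, tumor or blood-derived cells in the levels of the 9 genes was not tested.

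Of 10 monocyte and macrophage markers, 2 were higher at an unadjusted p under 0.05, beside 5.3% of all genes. The count in either direction was 0 without vehicle replicate 1 or vehicle replicate 3, and 6 with vehicle replicate 2 left out. The median log2 fold change was 1.85, and 0.21 without UMBO replicate 2. The summed level of the 10 was 109 to 236 CPM with vehicle and 213 and 585 CPM with UMBO. Lyz2, lysozyme, was at 13.7, 65.0 and 28.9 CPM with vehicle and at 60.3 and 294 CPM with UMBO, and Chil3 at 0.147, 1.78 and 0.201 CPM and at 3.39 and 9.36 CPM. Fn1 was at 66.2 to 107 CPM and at 109 and 129 CPM. Of 10 neutrophil markers, which bear on Lcn2, 6 could be tested. At the same unadjusted level 2 of the 6 were higher, beside 5.3% of all genes (median 1.05, and 0.32 without UMBO replicate 2). The summed level of the 6 was 9.60 to 16.9 CPM with vehicle and 22.2 and 29.7 CPM with UMBO. Most of this sum was Csf3r, which microglia also express, and the other 5 summed to 0.562, 2.03 and 0.803 CPM with vehicle and to 1.13 and 5.54 CPM with UMBO, with UMBO replicate 1 within the vehicle range. S100a9, a neutrophil alarmin gene, was at 0.267, 0.504 and 0.213 CPM with vehicle and at 0.246 and 2.17 CPM with UMBO, and Csf3r at 9.04 to 14.8 CPM and at 21.1 and 24.1 CPM. The defining genes Ly6g, Cxcr2, Camp and Mmp8 had too few reads to be tested, Ly6g with 0 to 3 reads and Mmp8 with 1 to 39 reads in a library.

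In the microglia markers the UMBO libraries were alike, with a summed level of 362 to 518 CPM with vehicle and 699 and 837 CPM with UMBO. Of 10, 6 were higher at an unadjusted p under 0.05, beside 5.3% of all genes. In 8 both UMBO libraries were above every vehicle library, beside 11.5% of all genes (median 0.69, and 0.56 without UMBO replicate 2). Fcrls was at 16.0, 16.9 and 17.4 CPM with vehicle and at 51.3 and 50.4 CPM with UMBO, and Cx3cr1 at 60.2 to 75.4 CPM and at 99.6 and 124 CPM. Of 10 endothelial markers 4 were higher at that level, beside 5.3% of all genes (median 0.52 with and without UMBO replicate 2). Their summed level was 182 to 252 CPM with vehicle and 307 and 291 CPM with UMBO. The tight junction gene Cldn5 was at 15.8, 29.4 and 19.6 CPM against 38.9 and 57.1 CPM, Flt1 at 51.9 to 74.3 CPM against 74.1 and 66.6 CPM, and Slco1a4 at 42.3 to 56.9 CPM against 64.6 and 25.1 CPM. Of 10 pericyte and fibroblast markers 4 were higher at that level, beside 5.3% of all genes (median 0.54, and 0.62 without UMBO replicate 2). Their summed level was 198 to 261 CPM with vehicle and 389 and 348 CPM with UMBO. Dcn was at 13.9 to 23.3 CPM against 53.8 and 47.3 CPM, Rgs5 at 79.0 to 107 CPM against 146 and 64.7 CPM, and Col1a2 at 26.2 to 37.6 CPM against 47.0 and 43.1 CPM. Of 10 neuron markers none was higher or lower at that level, beside 5.3% and 2.06% of all genes. All 10 had a log2 fold change below 0 (median -0.44, and -0.24 without UMBO replicate 2). In 4 both UMBO libraries were below every vehicle library, beside 11.4% of all genes. Rbfox3 (252 to 360 CPM against 233 and 223 CPM) and Snap25 (1923 to 3214 CPM against 1856 and 824 CPM) were among these 4 neuron markers. The summed level of the 10 neuron markers was 8428 to 12616 CPM with vehicle and 8587 and 4025 CPM with UMBO.

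**Figure D5:**
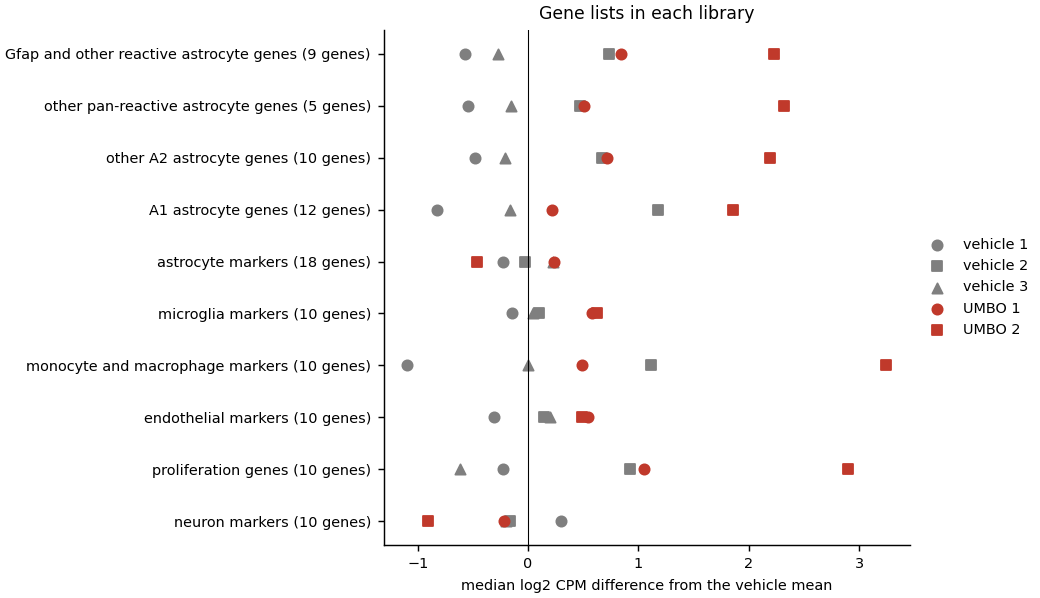
Median difference from the vehicle mean, in log2 CPM, of the genes of each list in each library, with the 9 reactive astrocyte genes in the top row. The monocyte and macrophage markers (3.25), the proliferation genes (2.90) and the 9 genes (2.23) are highest in UMBO replicate 2, the astrocyte markers lie between -0.47 and 0.23, and the microglia markers are alike in both UMBO libraries (0.58 and 0.62).

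Genes with the library pattern most like each member were named by the root mean square difference between log2 CPM values centred on each gene's own mean, over the 5 libraries and among 16441 other genes (16442 for Steap4) with a mean of at least 1 CPM. For Gfap they were Nnmt (0.294), Tlr2 (0.339), Epcam (0.341), Depp1 (0.362) and Serpina3n (0.367), of which Depp1 was higher in UMBO replicate 1 than in UMBO replicate 2 (2.49 and 1.82 CPM against 0.495 to 0.742 CPM with vehicle). Tlr2 was at 2.43, 6.68 and 4.35 CPM with vehicle and at 11.7 and 28.3 CPM with UMBO. Vim was most like Acp5 (0.104) and Cdkn2b (0.130), and Serpina3n most like Cryba4 (0.177) and Cd44 (0.221). Cd44 was most like Tyrobp (0.106) and Slamf9 (0.121), and Cd109 most like Trem2 (0.077) and Loxl2 (0.089). Lcn2 was nearest to Il1rn (0.173) and Acod1 (0.198), and Osmr to Tlr13 (0.043) and Anxa3 (0.062). S1pr3 was nearest to Bax (0.026) and Atp5g2 (0.026), and Steap4 to Nlrp3 (0.156) and Mns1 (0.164). Within the set the closest pair was Cd44 and Cd109 (0.204) and the farthest Lcn2 and Steap4 (1.31). With 5 libraries and 1 of them apart, many genes share such a pattern, and the measure describes these libraries only.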

How the data were processed

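Right-hemisphere RNA of 3 vehicle and 2 UMBO mice was analysed, with groups and replicate numbers from the sample labels. The authors mapped the reads to GRCm38 with STAR 2.7.2a and deposited raw counts per Ensembl gene without normalization. The annotation release and strand setting are not given in the sources used here. Symbols, positions and exonic lengths were taken from GENCODE M21, on the same build. Counts were TMM-normalized, filtered with filterByExpr and compared over 23592 genes in edgeR 4.0.16 under R 4.3.3 by its quasi-likelihood test, p-values were adjusted by Benjamini-Hochberg and called under 0.05, and log2 CPM used a prior count of 2. DESeq2 1.42.0, other scalings and filters, a replicate block and each library left out were alternatives. The script was tested on simulated data that varied less between libraries than these data do.

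The 9 genes and all gene lists were chosen with earlier results of these data known, so lists are described by counts and medians and no list test was run. All 9 genes are named. In lists on astrocytes, signaling, partners, filaments and relatives, every gene was named for up to 6 genes, and otherwise the 4 with the smallest p and the 2 with the highest mean CPM. In marker lists the 2 highest and the 1 with the smallest p were named, and 1 gene that this rule names is not reported here. Likeness was taken over tested genes with a mean of at least 1 CPM, 5 genes for Gfap and 2 for each other member. Promoter windows came from RefSeq, and the search was extended past the start after the sequences had been seen.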

Additional observations from a re-analysis of the deposited data

How the results depend on the processing

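The comparison rests on 2 UMBO libraries, and UMBO replicate 2 decided much of it. Genes past the adjusted threshold numbered 0 in edgeR, 37 with the DESeq2 Wald test, 2337 with a replicate block, and 0 to 4543 with 1 library left out, the highest without UMBO replicate 1, where the remaining UMBO library is assumed to vary like the vehicle libraries. Genes at an unadjusted p under 0.05 numbered 1738, 4100 with no filter on low counts, 2639 with DESeq2, 6134 with the replicate block, and 296 (without vehicle replicate 1) to 10165 (without UMBO replicate 1) with 1 library left out. The deviations of same-numbered libraries correlated at 0.453 and 0.760 across genes, a hint of pairing from the data, but only 2 numbers are shared between the groups and nothing in the labels ties a number to a litter, batch or day, so the replicate block stayed an alternative. The median log2 fold change of the 9 reactive astrocyte genes was 0.75 (without UMBO replicate 2) to 2.36 (without vehicle replicate 2) with 1 library left out, and between 1.66 and 1.94 under the scalings, filters, DESeq2 and block. The number of the 9 with both UMBO libraries above every vehicle library was 6 to 9 with 1 library left out, 9 without UMBO replicate 1, where 42.5% of all genes met the same condition with the 1 UMBO library that remained. Steap4 dropped out when at least 1 CPM in 2 libraries was required, leaving 8. Over all genes, the median of the log2 fold changes was 0.01, and 0.13 when scaled by library size alone. The counts at an unadjusted p under 0.05 of the other lists moved by over 1.5 times with 1 library left out in the relatives (1 to 6), filament genes (0 to 9), neutrophil markers (1 to 6), microglia markers (3 to 6), endothelial markers (1 to 4), pericyte and fibroblast markers (2 to 4) and neuron markers (0 to 7), each lowest without vehicle replicate 1 and highest without UMBO replicate 1, alone or tied with other libraries.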
